A study of Homo sapiens with 4 samples.

Results

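The 10 genes described here encode apolipoproteins, the protein shells of lipoprotein particles, and proteins that load or remodel those particles: APOA1, APOA2, APOB, APOC1, APOC3, APOE, APOH, APOM, MTTP and LCAT. They were chosen by name from the 56303 features of a table of raw counts per gene, and all 10 had enough counts to be compared. The libraries came from cultured Huh7, an established line of human liver cancer cells. Cells carrying a plasmid with a short hairpin RNA directed at RBM39 (shRBM39) gave 1 library of RNA immunoprecipitated with an antibody against RBM39 (IP) and 1 library of input RNA, and cells labelled shControl gave the same pair. RBM39 is an RNA-binding splicing factor, and the study asked which RNAs it binds in liver cancer cells. There was no IP with a control antibody among the 4 libraries, so the ratio of IP over input, called recovery here, has no background measured beside it. The labels do not say whether the hairpin cells were 1 clone or a pool.

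Hepatocytes pack triglyceride, cholesteryl ester and phospholipid around apolipoprotein B in the endoplasmic reticulum and secrete the result as very low density lipoprotein, which becomes low density lipoprotein in plasma. High density lipoprotein is built outside the cell around apolipoproteins A-I and A-II. The smaller apolipoproteins C and E move between particle classes and govern lipolysis and uptake by receptors. Most of these proteins carry a signal peptide, so their mRNAs are translated at the endoplasmic reticulum.

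Library totals were 45812488 counts for the shRBM39 IP and 22249581 for the shRBM39 input, against 41387762 for the shControl IP and 20858382 for the shControl input. RBM39 itself had 370 CPM (counts scaled to library size, after TMM normalization) in the shRBM39 input and 403 CPM in the shControl input (log2 -0.13, -0.17 to -0.08). In the IPs it went the other way, with 2219 CPM in the shRBM39 IP and 1035 CPM in the shControl IP (log2 1.10, 1.08 to 1.12, called higher). IP over input for RBM39 RNA was 2.58 (2.55 to 2.62) on the log2 scale in shRBM39 cells and 1.36 (1.33 to 1.39) in shControl cells. The labelled knockdown was thus small in the input RNA. The IP values depend on recovery as well as on the level in the cells, so they do not measure the knockdown. RBM39 protein was not measured here, and the directions below are those of the libraries as labelled. The 8 markers of a hepatocyte line, among them ALB, AFP and HNF4A, summed to between 4175 and 9852 CPM per library. The 13 markers of other cell types summed to between 365 and 453 CPM, most of it LYZ and KRT19, and 7 of them, among them PTPRC, CDH5 and DCN, were too low to be compared. Their part in the results was not tested. With 1 library per group no pairwise difference has a replicate check. Each log2 ratio is therefore given without a p-value, with a 95% interval that covers counting error alone. A gene is called higher or lower when its ratio reached 2-fold (1 on the log2 scale) and the interval excluded equality, which was judged for the 19210 features that reached 10 counts in 2 or more libraries.

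Together the 10 genes made up 0.188% of the counts in the shRBM39 IP and 0.456% in the shRBM39 input, against 0.423% in the shControl IP and 0.663% in the shControl input. These shares depend on what else each library held. Mitochondrial, 7SK and 7SL features took 0.689% of the shRBM39 IP and 6.48% of the shRBM39 input, against 0.461% of the shControl IP and 9.77% of the shControl input. APOB took a large share of these reads, which are counted per gene and not per length. It gave 33.9% of the 10 genes' counts in the shRBM39 IP and 54.3% in the shRBM39 input, against 38.0% in the shControl IP and 63.0% in the shControl input. Without APOB the other 9 genes summed to 1375 CPM in the shRBM39 IP and 2127 CPM in the shRBM39 input, against 2400 CPM in the shControl IP and 2371 CPM in the shControl input. The summed level was thus lower in the shRBM39 IP than in the other 3 libraries, with or without APOB.

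**Figure D1:**
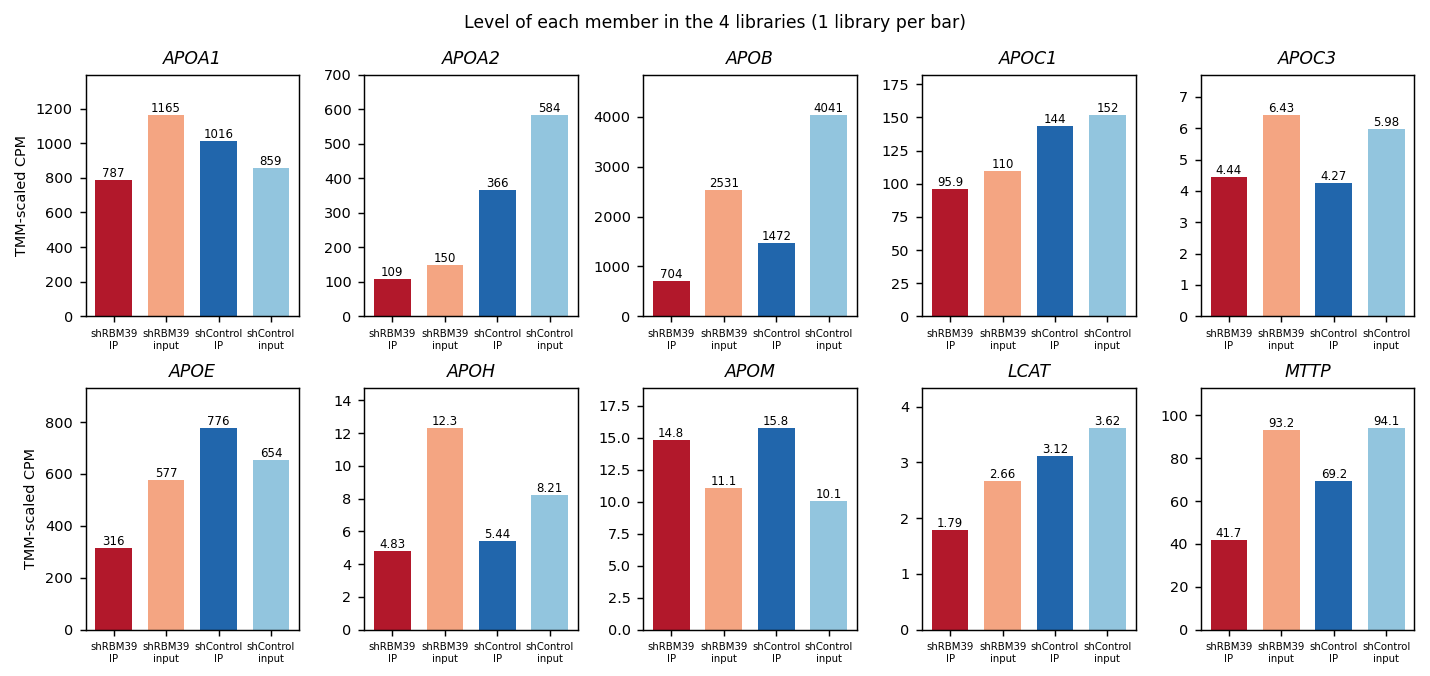
TMM-scaled counts (CPM, vertical axes, each starting at 0) of the 10 genes in the shRBM39 IP, shRBM39 input, shControl IP and shControl input, with 1 library per bar and therefore no error bars. APOA2 was low in both shRBM39 libraries, APOB was low in both IPs, and APOE was lowest in the shRBM39 IP.

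APOB (chromosome 2, 21001429 to 21044073, hg38) encodes the single large protein that scaffolds each low density particle. It had 704 CPM in the shRBM39 IP and 2531 CPM in the shRBM39 input, against 1472 CPM in the shControl IP and 4041 CPM in the shControl input. Both IP libraries lay below both inputs, and each shRBM39 library lay below its shControl counterpart. In shRBM39 cells the IP held 3.60 times less APOB than the input, a log2 ratio of -1.85 (-1.87 to -1.83), and in shControl cells 2.74 times less, a log2 ratio of -1.46 (-1.47 to -1.44). Of all compared features, 2.27% had a lower ratio in shRBM39 cells and 5.68% a lower one in shControl cells. Between the inputs, shRBM39 over shControl was -0.68 (-0.69 to -0.66) on the log2 scale, short of the 2-fold threshold.

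MTTP (chromosome 4, 99564130 to 99623997) encodes the large subunit of the microsomal triglyceride transfer protein, which adds lipid to nascent apolipoprotein B. It stood at 41.7 CPM in the shRBM39 IP and 93.2 CPM in the shRBM39 input, against 69.2 CPM in the shControl IP and 94.1 CPM in the shControl input. The 2 inputs were alike, with 2029 counts in each and a log2 ratio of -0.01 (-0.10 to 0.08), and both IPs were lower than both inputs. The ratio of IP over input was -1.16 (-1.25 to -1.07) in shRBM39 cells, where MTTP was called lower, and -0.44 (-0.52 to -0.36) in shControl cells, where it was not. APOB and MTTP, the pair that starts particle assembly, thus both had less RNA in the IP than in the input in each culture, APOB by the larger factor.

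The high density lipoprotein genes differed among themselves. APOA1 (chromosome 11, 116835751 to 116837622), the main structural protein of that particle, had 787 CPM in the shRBM39 IP and 1165 CPM in the shRBM39 input, against 1016 CPM in the shControl IP and 859 CPM in the shControl input. The shRBM39 input was the highest of the 4 libraries and the shRBM39 IP the lowest. IP over input was -0.57 (-0.59 to -0.54) in shRBM39 cells and 0.24 (0.22 to 0.27) in shControl cells, neither past 2-fold. The annotated antisense transcript APOA1-AS overlaps APOA1 and had 7527 counts in the shRBM39 IP and 5455 in the shRBM39 input, against 11166 in the shControl IP and 4348 in the shControl input. Without a stated strand setting, reads of this pair cannot be told apart.

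APOA2 (chromosome 1, 161222292 to 161223628), the second protein of high density lipoprotein, showed the largest difference between the inputs of the 10 genes. It had 109 CPM in the shRBM39 IP and 150 CPM in the shRBM39 input, against 366 CPM in the shControl IP and 584 CPM in the shControl input. Both shRBM39 libraries lay below both shControl libraries. APOA2 was 3.90 times lower in the shRBM39 input than in the shControl input, a log2 ratio of -1.96 (-2.02 to -1.91), and it was the 1 gene of the 10 called lower there, where 5.74% of all compared features were called lower, 5.10% higher, and none of the 10 higher. Of all features, 1.72% had a lower ratio. In the IPs it was 3.37 times lower (log2 -1.75, -1.80 to -1.71). Its recovery was -0.46 (-0.53 to -0.40) in shRBM39 cells and -0.67 (-0.71 to -0.64) in shControl cells. These recoveries differed by less than 2-fold, with intervals that did not overlap. With libraries scaled to total counts they were -0.58 in shRBM39 cells and -0.59 in shControl cells.

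APOM (chromosome 6, 31652404 to 31658210), a lipocalin that carries sphingosine 1-phosphate on high density lipoprotein, was the 1 gene of the 10 that had more RNA after IP than before it in both cultures. It had 14.8 CPM in the shRBM39 IP and 11.1 CPM in the shRBM39 input, against 15.8 CPM in the shControl IP and 10.1 CPM in the shControl input. IP over input was 0.42 (0.20 to 0.64) in shRBM39 cells and 0.65 (0.43 to 0.87) in shControl cells, below 2-fold in both. Its annotated span overlaps that of BAG6 from 31652404 to 31652661. BAG6 had 3607 and 1181 counts in the shRBM39 IP and input, against 4503 and 999 in the shControl IP and input. APOM had 614 and 241 counts in the shRBM39 IP and input, against 713 and 217 in the shControl IP and input. Both genes thus had more raw counts in the IPs, whose libraries were also larger, and shared reads cannot be separated here.

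LCAT (chromosome 16, 67939750 to 67944120) encodes the plasma enzyme that esterifies cholesterol on high density lipoprotein, and it was the least counted of the 10 genes. It had 74 counts (1.79 CPM) in the shRBM39 IP and 58 counts (2.66 CPM) in the shRBM39 input, against 141 counts (3.12 CPM) in the shControl IP and 78 counts (3.62 CPM) in the shControl input. At this depth IP over input was -0.58 (-1.09 to -0.06) in shRBM39 cells and -0.22 (-0.62 to 0.20) in shControl cells. The difference between the inputs, -0.44 (-0.96 to 0.07), was not detectable. LCAT overlaps SLC12A4, so some of its few reads may belong to that gene.

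Of the exchangeable apolipoproteins, APOE (chromosome 19, 44905796 to 44909393), the ligand by which remnant particles bind the low density lipoprotein receptor, had 316 CPM in the shRBM39 IP and 577 CPM in the shRBM39 input, against 776 CPM in the shControl IP and 654 CPM in the shControl input. The shRBM39 IP stood well below the other 3 libraries. IP over input was -0.87 (-0.90 to -0.83) in shRBM39 cells and 0.25 (0.22 to 0.28) in shControl cells. The inputs differed by -0.18 (-0.21 to -0.14), while the IPs differed by -1.30 (-1.33 to -1.27), so the difference of APOE between the cultures lay mostly in the IP.

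APOC1 (chromosome 19, 44914325 to 44919346), an inhibitor of lipoprotein uptake, lies next to APOE. It had 95.9 CPM in the shRBM39 IP and 110 CPM in the shRBM39 input, against 144 CPM in the shControl IP and 152 CPM in the shControl input. The IP of each culture was close to its input, with log2 ratios of -0.19 (-0.27 to -0.12) in shRBM39 cells and -0.08 (-0.14 to -0.02) in shControl cells. Both shRBM39 libraries were below both shControl libraries, by -0.47 (-0.55 to -0.39) on the log2 scale in the inputs.

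APOC3 (chromosome 11, 116829907 to 116833072), an inhibitor of lipoprotein lipase, lies beside APOA1 and had few counts. It had 184 counts (4.44 CPM) in the shRBM39 IP and 140 counts (6.43 CPM) in the shRBM39 input, against 193 counts (4.27 CPM) in the shControl IP and 129 counts (5.98 CPM) in the shControl input. Both IPs lay below both inputs, with log2 ratios of -0.54 (-0.86 to -0.21) in shRBM39 cells and -0.49 (-0.82 to -0.15) in shControl cells, and a difference between the inputs of 0.10 (-0.25 to 0.46) was not detectable at this depth.

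APOH (chromosome 17, 66212033 to 66229415) encodes beta-2-glycoprotein I, a plasma protein that binds anionic phospholipid. It had 200 counts (4.83 CPM) in the shRBM39 IP and 268 counts (12.3 CPM) in the shRBM39 input, against 246 counts (5.44 CPM) in the shControl IP and 177 counts (8.21 CPM) in the shControl input. Both IPs were below both inputs. IP over input was -1.35 (-1.62 to -1.08) in shRBM39 cells, which was called lower, and -0.59 (-0.88 to -0.31) in shControl cells. APOH had the highest ratio of the 10 genes between the inputs, 0.58 (0.31 to 0.87), which did not reach 2-fold.

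The promoters of the genes at both ends of the input comparison are shown because APOA2 had the lowest and APOH the highest ratio between the inputs. RefSeq windows of 250 bases before an annotated start on GRCh38.p14 were found for 6 of the 10 genes (9 windows in all). The APOA2 window is chr1:161223629-161223878 on the minus strand and the APOH window is chr17:66229416-66229665 on the minus strand, both printed 5′ to 3′. Of 4 motifs searched on both strands, GTAAACA, bound by FOXA factors, was found in the APOA2 window, where capitals mark it, and none was found in the APOH window.
APOA2: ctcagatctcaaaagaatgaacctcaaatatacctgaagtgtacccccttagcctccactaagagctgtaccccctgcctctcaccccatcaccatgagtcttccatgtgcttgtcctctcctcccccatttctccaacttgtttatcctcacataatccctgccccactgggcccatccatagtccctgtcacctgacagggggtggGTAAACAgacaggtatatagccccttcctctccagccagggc
APOH: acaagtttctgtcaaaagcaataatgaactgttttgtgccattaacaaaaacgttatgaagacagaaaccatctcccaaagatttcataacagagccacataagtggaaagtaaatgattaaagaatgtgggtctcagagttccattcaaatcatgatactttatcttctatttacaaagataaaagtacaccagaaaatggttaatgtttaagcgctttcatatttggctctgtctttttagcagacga
The APOA2 window was 52.8% G or C and the APOH window 33.2%. Among 35116 windows of this length, 2.98% held GTAAACA. The other motifs were TATAAA, which 10.7% of windows held, AGGTCA, the nuclear receptor half-site (12.1%), and CACGTG, the E-box of USF factors (6.34%). Of the 9 windows, 1 held TATAAA and the same one held AGGTCA, in MTTP, and 0 held CACGTG. The motifs were chosen after the sequences were read, and a match is a run of letters, not a shown binding site.

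Seen across all 10 genes, recovery in shRBM39 cells had a median of -0.57 on the log2 scale, with a range of -1.85 to 0.42, where the median of all compared features was 0.02. The 3 genes called lower were APOB, APOH and MTTP, against 9.00% of all features called lower, and 0 of the 10 were called higher, against 5.29% of all features. Of the 10 genes, 9 lay below the median of all features, APOM being the exception. In shControl cells the median was -0.33, with a range of -1.46 to 0.65, where the median of all features was -0.01, and 7 of the 10 lay below it. There APOB was the 1 gene called lower, a share close to the 11.3% of all features, and 0 were called higher, against 7.70% of all features.

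APOM was highest and APOB lowest in both cultures, and neither interval overlapped that of its neighbour in the order. In shRBM39 cells APOC1 came second with an interval clear of the next gene, and APOA2, APOC3, APOA1, LCAT and APOE followed, each overlapping its neighbour in that run. MTTP and APOH came after them and overlapped each other. The wider intervals of APOC3 and LCAT also overlapped that of APOC1, and the interval of LCAT overlapped those of MTTP and APOH. In shControl cells APOE and APOA1 came next after APOM, with overlapping intervals. APOC1, LCAT, MTTP, APOC3, APOH and APOA2 followed, each again overlapping its neighbour in that run.

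**Figure D2:**
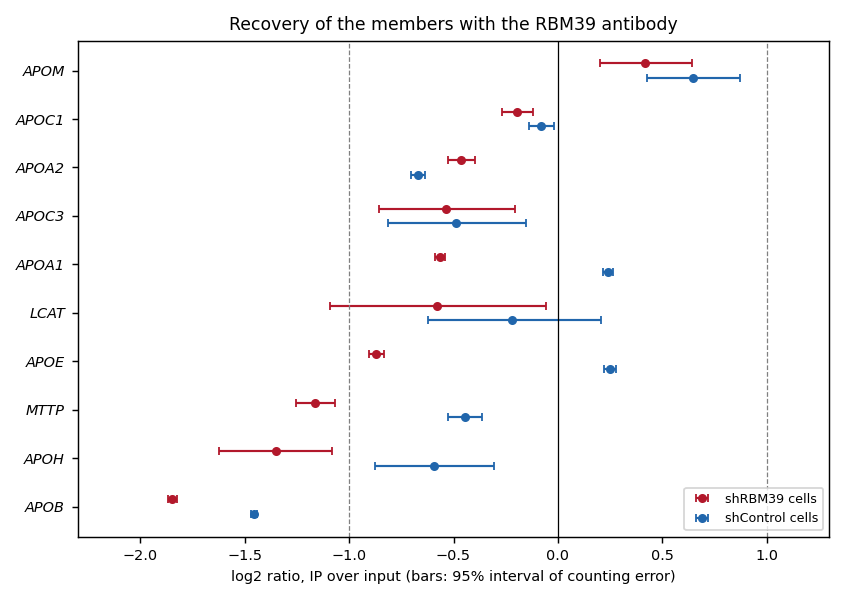
Log2 ratio of IP over input (horizontal axis) of the 10 genes, ordered by their value in shRBM39 cells, with 1 point for shRBM39 cells above 1 point for shControl cells and bars for the 95% interval of counting error; dashed lines mark 2-fold. APOB lies past the 2-fold line in both cultures, MTTP and APOH in shRBM39 cells, and APOA1 and APOE lie on opposite sides of 0 in the 2 cultures.

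The 2 IPs were tested against the 2 inputs by the quasi-likelihood method of edgeR, in a model with terms for culture and fraction that leaves 1 residual degree of freedom, and p-values were adjusted by Benjamini-Hochberg over all features. With 1 library for each culture and fraction, the cultures took the place of replicates. A true difference of recovery between them counts as error, which bears on APOE and APOA1, whose ratios had opposite signs in the cultures. Of the 10 genes, 4 were lower in the IP at an adjusted p under 0.05, where 17.6% of all features were, and 1 was higher, where 19.3% of all features were. The lower genes were APOB (log2 -1.65, adjusted p = 3.03e-05), MTTP (-0.80, adjusted p = 0.00103), APOH (-0.98, adjusted p = 0.00131) and APOA2 (-0.57, adjusted p = 0.0157), each below its input in both cultures. The higher gene was APOM (0.53, adjusted p = 0.0193), which DESeq2 did not call (adjusted p = 0.0999). APOC3 stood at -0.51 (adjusted p = 0.0721), LCAT at -0.38 (adjusted p = 0.302), APOE at -0.31 (adjusted p = 0.313), APOA1 at -0.16 (adjusted p = 0.604) and APOC1 at -0.14 (adjusted p = 0.524). Without the culture term edgeR called 0 of the 10 genes and 0 of all features, while 3 of the 10 and 4143 of all features had an unadjusted p under 0.05. The calls thus rest on setting each IP against the input of its own culture.

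The change of recovery between the cultures was measured as the difference of the 2 log2 ratios, shRBM39 minus shControl. Its median over the 10 genes was -0.38, where that of all features was -0.00432, and 9 of the 10 were below the median of all features. APOE was the 1 gene called lower, at -1.12 (-1.16 to -1.07), where 2.74% of all features were called lower, and 0 were called higher, where 4.39% were. APOA1 at -0.81 (-0.84 to -0.77), APOH at -0.76 (-1.14 to -0.37) and MTTP at -0.72 (-0.84 to -0.60) came next, short of 2-fold. APOB stood at -0.39 (-0.41 to -0.36) and APOC1 at -0.11 (-0.21 to -0.02). The intervals of APOM at -0.23 (-0.53 to 0.08), LCAT at -0.36 (-0.996 to 0.27) and APOC3 at -0.05 (-0.50 to 0.40) included 0. APOA2 was the 1 gene with a positive difference, 0.21 (0.14 to 0.28), which fell to 0.02 with libraries scaled to total counts.

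Because this difference combines 4 libraries, the IPs and the inputs were also compared directly. In shRBM39 over shControl IPs the median of the 10 genes was -0.66, with APOA2, APOE and APOB called lower, where 5.27% of all features were, and 0 called higher, where 6.61% were. APOE and APOA2 reached the called IP difference in unlike ways, as APOE had near-equal inputs and APOA2 had a large difference in the inputs. APOB lay between them, with -0.68 in the inputs and -1.06 (-1.08 to -1.05) in the IPs. MTTP had near-equal inputs and -0.73 (-0.82 to -0.65) in the IPs. APOH and APOA1 had positive input ratios of 0.58 and 0.44 (0.41 to 0.47), but IP ratios of -0.17 (-0.45 to 0.10) and -0.37 (-0.39 to -0.35).

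**Figure D3:**
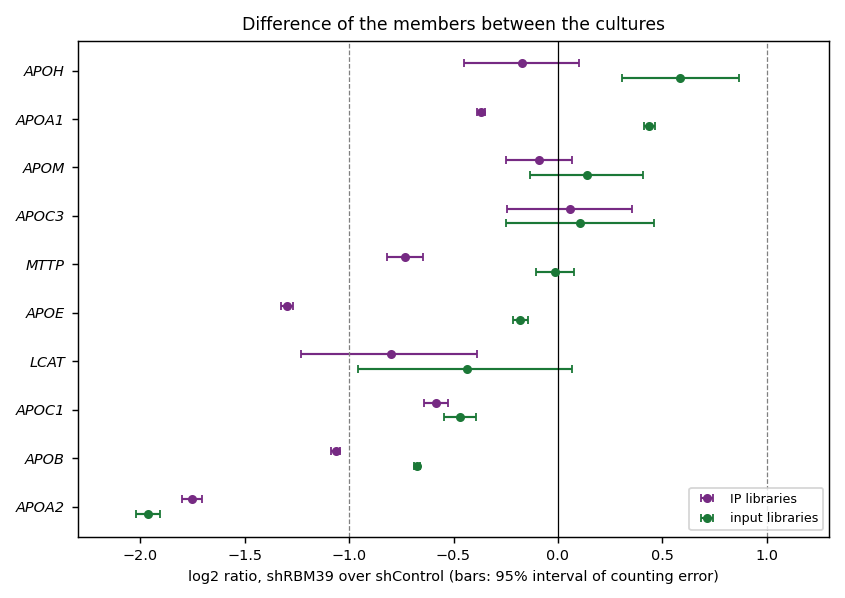
Log2 ratio of shRBM39 over shControl (horizontal axis) of the 10 genes in the IP libraries and in the input libraries, ordered by the input value, with bars for the 95% interval of counting error and dashed lines at 2-fold. APOA2 is the 1 gene past 2-fold in the inputs, and APOA2, APOE and APOB are past it in the IPs.

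Scaling between libraries does not enter the ratio of 2 genes within 1 library, so such ratios were added after the data were seen. APOA2 over APOA1 was 0.138 in the shRBM39 IP and 0.129 in the shRBM39 input, against 0.361 in the shControl IP and 0.679 in the shControl input. Between the inputs this ratio was 0.189 times as large in shRBM39 cells (log2 -2.40, -2.46 to -2.34), so the genes of the 2 main high density lipoprotein proteins moved apart whatever the scaling. APOC1 over APOE, neighbours on chromosome 19, was 0.303 in the shRBM39 IP and 0.190 in the shRBM39 input, against 0.185 in the shControl IP and 0.232 in the shControl input. In shRBM39 cells the ratio in the IP was 1.60 times that of the input (log2 0.68, 0.59 to 0.76), and in shControl cells 0.797 times as large (log2 -0.33, -0.39 to -0.26). APOM over APOE was 0.0469 in the shRBM39 IP and 0.0192 in the shRBM39 input, against 0.0203 in the shControl IP and 0.0154 in the shControl input. APOB over MTTP was 16.9 in the shRBM39 IP and 27.2 in the shRBM39 input, against 21.3 in the shControl IP and 42.96 in the shControl input, so APOB was the less recovered of the pair in both cultures.

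**Figure D4:**
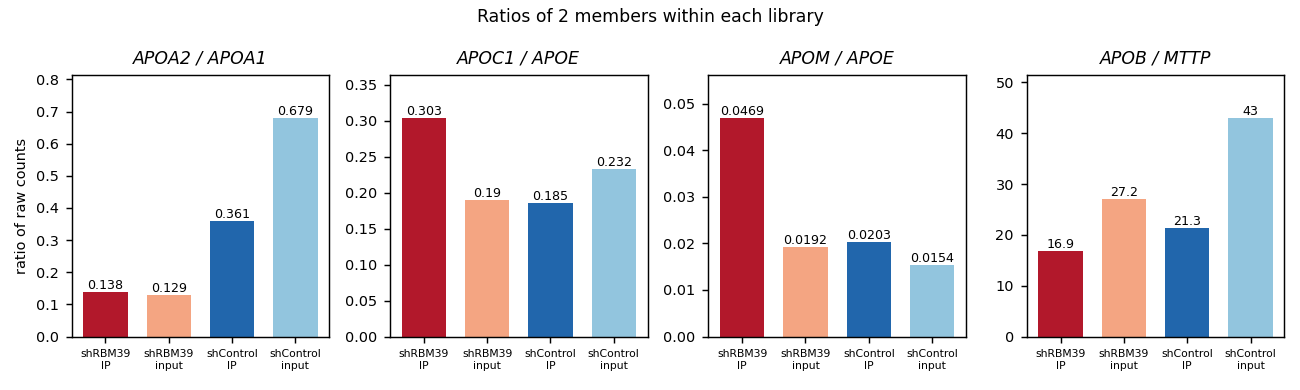
Ratio of raw counts of 2 genes within each library (vertical axes, each starting at 0), with 1 library per bar in the order shRBM39 IP, shRBM39 input, shControl IP and shControl input. APOA2 over APOA1 is low in both shRBM39 libraries, and APOC1 over APOE and APOM over APOE are highest in the shRBM39 IP.

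Some genes that lie side by side had unlike values. In the cluster on chromosome 11, APOA4, a lipid-binding protein, and APOA5, an activator of plasma triglyceride clearance, had 61 and 40 counts in the shRBM39 IP and 60 and 45 in the shRBM39 input, against 126 and 83 in the shControl IP and 59 and 29 in the shControl input. Recovery in shRBM39 cells was -0.90 (-1.44 to -0.37) for APOA4 and -1.10 (-1.75 to -0.45) for APOA5, and in shControl cells it was 0.02 (-0.43 to 0.50) and 0.43 (-0.18 to 1.11). APOA4 and APOA5 and APOA1 thus had a lower ratio in shRBM39 cells than in shControl cells, while APOC3, which lies between APOA4 and APOA1, had near-equal ratios. The difference of recoveries was -0.92 (-1.60 to -0.25) for APOA4 and -1.53 (-2.39 to -0.67) for APOA5. The interval of APOC3, -0.50 to 0.40, overlapped that of APOA4 but not that of APOA5. In the cluster on chromosome 19, APOC2, the activator of lipoprotein lipase, had recoveries of -0.62 in both cultures. The readthrough feature APOC4-APOC2 had 973 and 787 counts in the shRBM39 IP and input, against 1785 and 1307 in the shControl IP and input, and APOC2 had 973 and 786, against 1783 and 1308. Reads of the shared stretch were thus given to both features, so APOC2 is uncertain. The pseudogene APOC1P1, which could share reads with APOC1, had 51 and 37 counts in the shRBM39 IP and input, against 108 and 52 in the shControl IP and input.

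Other genes of lipoprotein biology were taken from lists drawn up by role. Their counts of called genes stand beside these shares of all compared features. In the shRBM39 IP over input 9.00% were called lower and 5.29% higher. In the shControl IP over input 11.3% were lower and 7.70% higher, and between the inputs 5.74% were lower and 5.10% higher. Of 12 compared genes listed as other apolipoproteins, which include the receptor gene APOBR, APOA5 was the 1 called lower in the shRBM39 IP over input. There 0 were higher, and the median was -0.68. Between the inputs SAA4, an apolipoprotein of high density lipoprotein, was higher (3.37, 2.59 to 4.36), with 140 counts in the shRBM39 input and 13 in the shControl input. APOL1, the trypanolytic factor of that particle (-1.83, -3.35 to -0.66), and APOL3 (-2.68, -8.64 to -0.33) were lower on 1 to 26 counts per input. Of 28 genes for assembly and secretion of the particles, 8 were called lower and 0 higher in the shRBM39 IP over input, with a median of -0.61. The 4 with the largest ratios were AADAC, a lipid hydrolase of the endoplasmic reticulum (-1.77), LMAN1, a cargo receptor for export from it (-1.51), SORT1, a sorting receptor that binds apolipoprotein B (-1.36), and the chaperone PDIA3 (-1.33). In shControl cells the median was -0.11, and MIA3, a cargo receptor for large cargo (-1.01), was the 1 gene called lower. P4HB, which encodes protein disulfide isomerase, the other subunit of the triglyceride transfer protein, was not called, with 584 CPM in the shRBM39 IP and 843 CPM in the shRBM39 input, against 728 CPM in the shControl IP and 860 CPM in the shControl input. Like MTTP it was below its input in both IPs, with the smaller log2 ratio of -0.53 (-0.56 to -0.50) in shRBM39 cells, and it was named after its values were seen. Between the inputs CES1 (1.84, 1.65 to 2.04) and AADAC (1.80, 1.496 to 2.12), both lipid esterases, were higher in shRBM39 cells and 0 genes were lower.

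Of 11 compared lipases and modifiers of plasma lipoproteins, 5 were called lower in the shRBM39 IP over input and 0 higher, with a median of -0.79. Of all features 9.00% were called lower there and 5.29% higher. The paraoxonase PON2 was called lower in both cultures, at -1.26 in shRBM39 cells and -1.06 in shControl cells. ANGPTL8, a secreted regulator of lipoprotein lipase activity, was the 1 gene of the list called lower between the inputs, at -2.06 (-2.53 to -1.63), with 52 counts in the shRBM39 input and 216 in the shControl input. That difference was close in size to the one of APOA2.

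Of 15 compared lipoprotein receptors and lipid transporters, 2 were called higher in the shRBM39 IP over input and 0 lower, with a median of -0.36. Of all features 5.29% were called higher there and 9.00% lower. The genes called higher were LSR, the lipolysis-stimulated receptor (1.07), and ABCG8, a sterol transporter with 43 and 10 counts in the shRBM39 IP and input (1.12, 0.16 to 2.33). LRP2, megalin, was the 1 gene called lower in shControl cells (-1.46) and was higher between the inputs (1.36, 1.19 to 1.52). The mRNAs of 26 transcription factors that bind apolipoprotein promoters, which encode no secreted proteins, had median recoveries of 0.48 in shRBM39 cells and 0.58 in shControl cells. In shRBM39 cells NR2F1 (1.03) was higher, and in shControl cells CEBPB (1.24) and SREBF2 (1.15) were among those higher and PPARA (-1.0003) was lower. Between the inputs 1 of the 26, CREB3L3, a membrane-bound factor of liver and intestine, was higher (1.01, 0.93 to 1.09).

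Liver genes for other secreted plasma proteins were compared because they share the secretory route. Of 38 compared, 21 were called lower and 0 higher in the shRBM39 IP over input, with a median of -1.07. Of all features 9.00% were called lower there and 5.29% higher. In shControl cells 3 were lower and 0 higher, with a median of -0.31, where 11.3% of all features were lower and 7.70% higher. The difference of recovery had a median of -0.68 for these genes, -0.57 for the lipases and modifiers and -0.40 for the assembly and secretion genes. It was -0.38 for the 10 genes and -0.18 for the 12 genes listed as other apolipoproteins, APOBR included. For the receptors it was -0.00306 and for the transcription factors 0.05. The 8 hepatocyte-line markers, most of which are also in the list of other secreted liver proteins, had a lower median than any of these, -0.93, with 8 of 8 below 0 and 7 intervals below 0, and the 6 compared markers of other cell types had -0.24. The differences between these lists were not tested.

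**Figure D5:**
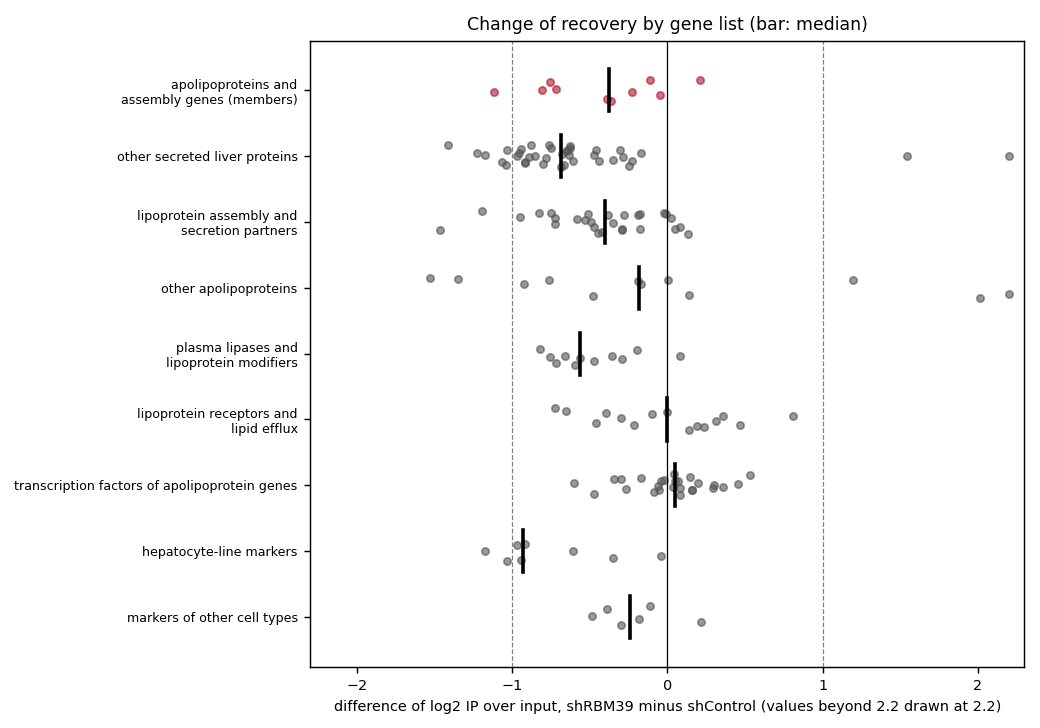
Difference of the log2 IP over input ratios, shRBM39 minus shControl (horizontal axis), with 1 point per compared gene, rows for the gene lists and a bar for each median; dashed lines mark 2-fold. The 10 genes have a median of -0.38, the hepatocyte-line markers -0.93, the other secreted liver proteins -0.68 and the transcription factors 0.05.

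Among 8101 features with at least 2000 summed counts, the 5 closest to the median pattern of the 10 genes were KIDINS220, CFAP126, EDEM1, PPP1CC and SMIM15. Closeness was the distance over the 2 recoveries and the input ratio, and it lay between 0.0250 for KIDINS220 and 0.0647 for SMIM15 on the log2 scale. These 3 values rest on 4 libraries.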

How the data were processed

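RNA immunoprecipitation sequencing was done by the authors with a commercial kit, per the labels' protocols. The authors deposited raw, unnormalized counts by gene symbol. The submitters' processing notes name hg38, HISAT2 2.0.4, StringTie 1.3.4d and cutadapt 1.9. How reads were counted, and with which annotation and strand setting, is not given in the sources used here. Of the counts from 3 to 6, between 71.4% and 75.6% per library were even, so both mates of a pair may have been counted, which makes counting intervals too narrow; PCR reads are not independent molecules either.

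Of 56303 features, the 19210 that reached 10 counts in 2 or more libraries were kept. Libraries were scaled by TMM over the kept features (edgeR 4.0.16, R 4.3.3). Log2 ratios had 0.5 added to each count, with exact conditional (Clopper-Pearson) 95% intervals; the difference of 2 ratios had an interval from its counting standard error. IP and input over both cultures were tested with edgeR's quasi-likelihood test, adjusted by Benjamini-Hochberg, with DESeq2 1.42.0 as the alternative. The steps were run on simulated counts with planted changes. Those for edgeR held no difference between the cultures, and those for the pairwise ratios held counting error alone. They therefore cannot show how far the calls hold in these libraries. A p-value measures only the spread between these libraries, in which a true difference of recovery between the cultures counts as error. The spread used for each gene also draws on that of the other features. All 4 columns matched a sample by name. The old symbol CREBH, for CREB3L3, had no row of its own.

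The 10 genes and the lists were chosen with earlier results of these data known. Named genes were the 10 genes, up to 4 called members of each list by size, the 5 closest features and RBM39; some called members of the lists are not reported here. Coordinates are RefSeq's on GRCh38.p14, the assembly hg38 names. The table gives genomic spans, not transcript lengths, so counts and shares of counts of different genes are of reads, not of levels per length.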

Additional observations from a re-analysis of the deposited data

Results flagged for a closer look

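The recovery of APOA1 and APOE pointed in opposite directions in the 2 cultures, each with a counting interval clear of 0. For APOA1 the log2 ratio of IP over input was -0.57 in shRBM39 cells and 0.24 in shControl cells, a difference of -0.81, and for APOE it was -0.87 in shRBM39 cells and 0.25 in shControl cells, a difference of -1.12. With 1 library per group this difference was not tested against replicates. With libraries scaled to total counts APOA1 also passed the 2-fold threshold, at -1.001.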

How the results depend on the processing

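Scaling to total counts moved the median of all features by -0.27 for shRBM39 over shControl in the IPs, by -0.19 for the difference of recoveries and by -0.11 for recovery in shRBM39 cells. It gave 5 of the 10 genes lower between the IPs in place of 3 (LCAT and MTTP were added) and 2 lower in the difference in place of 1 (APOA1 was added). Of all features 729 were then higher and 1911 lower between the IPs, in place of 1269 and 1012, 570 higher and 887 lower in the difference, in place of 843 and 526, and 718 higher and 2164 lower in the recovery of shRBM39 cells, in place of 1016 and 1729. APOC3 between the IPs, not called, was the 1 value whose sign differed, 0.06 with TMM and -0.22 with total counts. With total counts, 29 pairwise values of the 10 genes lay outside the counting intervals given with TMM. Those intervals thus do not cover the choice of scaling. TMM without mitochondrial, 7SK and 7SL features kept the number of the 10 genes called in each pairwise comparison, while 10 of their values lay outside those intervals. Of all features 1122 were then higher and 1168 lower between the IPs, in place of 1269 and 1012.

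With no filter on low counts, 3494 features were lower in the shControl IP over input, 2820 in the shRBM39 IP over input and 1539 between the IPs, in place of 2173, 1729 and 1012. Halving the counts gave 696 lower between the inputs, in place of 1102, and 486 higher and 258 lower in the difference, in place of 843 and 526, and kept the number of the 10 genes called in each comparison. At 1.5-fold, 1 of the 10 genes was higher and 3 lower in the shControl IP over input, 2 were lower between the inputs, 5 between the IPs and 4 in the difference. Of all features 3630 were then higher and 3953 lower in the shControl IP over input, 2977 and 3350 in the shRBM39 IP over input, 2440 and 2295 between the inputs, 2707 and 2362 between the IPs, and 1527 and 1312 in the difference.

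In the test over both cultures, APOM was not called by DESeq2 or by edgeR with total counts (adjusted p = 0.0684), and each called 0 of the 10 genes higher. Of all features DESeq2 called 2598 higher and 2097 lower, in place of 3698 and 3381. With total counts 2850 were higher and 3009 lower. APOA2, APOB, APOH and MTTP were lower under each alternative that had a culture term. Without that term edgeR called 0 of the 10 genes in either direction and 0 of all features in either direction. With the term, which pairs each IP with the input of its culture, it called 7079 features. At an unadjusted p under 0.05 edgeR had 4143 features without the term and 8828 with it. The causes were not tested. The labels give no replicate numbers that would pair libraries in another way. Depth limits LCAT, APOC3 and APOH, with 58 to 268 counts per library.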
